A study of Mus musculus with 2 samples.

Results

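Conventional dendritic cells were taken here as droplet barcodes chosen by the measured counts of 5 marker genes, with at least 2 UMIs in sum of Flt3, Clec9a, Xcr1, Cd209a and Wdfy4. A UMI is a tag that marks 1 captured RNA molecule. Barcodes with any UMI of Siglech, Pax5, Ms4a1 or Cd79a, which mark plasmacytoid dendritic and B cells, were left out, as were those with more than 1 UMI in sum of Clec4f, Vsig4, Cd5l, Stab2, Ptprb, Skap1 and Dcn, which mark Kupffer, endothelial, T and stellate cells. The rule was applied to 42372 barcodes that reached 1000 UMIs and 400 genes and whose mitochondrial share did not exceed 30%, and 713 met it (257 of 20158 in WT, 456 of 22214 in N-LKO). Because these genes chose the barcodes, their levels are given as a description.

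The study asked what loss of NgBR (the Nus1 gene product, a subunit of the enzyme that makes dolichol) in hepatocytes does to the liver of mice on a Western diet (WD, HFD in the sample titles) for 16 weeks. The WT library came from livers of mice with the genotype label CTRL. The N-LKO library came from liver plus tumor of mice with the label NgBR KO, in which albumin-Cre deletes floxed NgBR in hepatocytes, so dendritic cells keep an intact gene. The study describes its animals as male mice moved from a standard diet to the WD, and the number of animals per library was not given in the sources used here. Each group was 1 library of collagenase-released cells, in which hepatocytes, nonparenchymal cells and, for N-LKO, tumor cells had been mixed at set ratios, so the comparison has no replicate check, and genotype, tumor tissue and library cannot be told apart. All intervals are exact 95% intervals, or Newcombe intervals for a difference between shares, and they cover counting error only. Levels are in CPM, the UMIs of a gene per 1000000 UMIs summed over the barcodes of a set.

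Conventional dendritic cells take up antigen and present it to T cells on MHC class II. The cDC1 type, marked by Xcr1 and Clec9a and dependent on the factors Irf8 and Batf3, takes up dead cells and cross-presents their antigens to CD8 T cells. The cDC2 type, marked by Cd209a and Sirpa, presents mainly to CD4 T cells and shares several genes with monocytes. Flt3 is the growth factor receptor of both, and Wdfy4 is needed for cross-presentation by cDC1. After activation both types take on a mature state with Ccr7, Fscn1 and Ccl22.

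The WT dendritic barcodes held 409932 UMIs in all with a median of 1485 per barcode, and the N-LKO ones held 809892 with a median of 1582. Median mitochondrial shares were 10.1% in WT and 14.7% in N-LKO. Hepatocyte transcripts were abundant in the dendritic barcodes. Barcodes under 500 UMIs stood for free RNA here. The lowest of them held 326 UMIs in WT and 377 in N-LKO, and whether they were empty droplets was not tested. The 7 hepatocyte markers summed to 26124 CPM in WT dendritic barcodes and 11134 in N-LKO ones, against 65758 and 28405 in barcodes under 500 UMIs of the same libraries. Taken as free RNA, these hepatocyte transcripts put its share at 39.7% of UMIs in WT and 39.2% in N-LKO, so the level of a gene under 500 UMIs per barcode is given below where the result touches it. No dendritic barcode sequence occurred in the dendritic set of the other library, although 5 in WT and 9 in N-LKO were present among all barcodes of the other library. Doublet calls were not part of the rule, and a doublet score of at least 0.25 was reached by 8 dendritic barcodes in WT and 26 in N-LKO.

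Genes outside the rule that are known for conventional dendritic cells were enriched in the set as a whole. Among the 15 genes that exceeded other Ptprc-positive (leukocyte) barcodes most in both libraries were 4 of the 5 rule markers and the cDC1 genes Gcsam, Itgae, Naaa and Ifi205. Naaa, a lysosomal amidase, stood at 227 CPM in WT dendritic barcodes against 13.7 in the other leukocyte barcodes, and at 227 against 22.0 in N-LKO. Htr7, a serotonin receptor, was at 95.1 against 3.11 in WT and at 130 against 7.08 in N-LKO. Zbtb46, a transcription factor of conventional dendritic cells, had 137 against 26.9 in WT and 130 against 43.9 in N-LKO. Cd74, the MHC class II invariant chain, had 4552 against 1519 in WT and 4854 against 2285 in N-LKO. Sirpa was lower than in the other leukocyte barcodes, at 58.5 against 169 in WT and 85.2 against 201 in N-LKO, and thus did not single out the set.

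Dendritic genes were lower and macrophage genes higher close to the marker threshold. Barcodes with a marker sum of 3 or more had Irf8 at 561 CPM in WT and 597 in N-LKO. Those just inside the threshold, with a sum of 2, had Irf8 at 270 in WT (90 barcodes) and 199 in N-LKO (197 barcodes), and those just outside, with a sum of 1, had 98.5 and 145. The 11 macrophage markers went the other way in N-LKO, with 967 in the highest class, 2260 just inside and 2758 just outside, and in WT with 564, 779 and 1389.

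Under the rule used here, the share of Ptprc-positive barcodes that were dendritic was nearly the same in the 2 libraries. Dendritic barcodes with a Ptprc UMI made up 3.23% of them (161 of 4977) in WT and 3.25% (345 of 10619) in N-LKO (difference 0.014 points, −0.60 to 0.59). The difference depended on the rule. It was −0.58 points among barcodes with Xcr1, Clec9a or Cd209a, −0.46 with Wdfy4 left out and −0.33 at a marker sum of at least 3. With a UMI minimum of 500 it was 0.26, and 6 of 12 alternatives kept the sign. A Ptprc UMI was found in 62.6% of the dendritic barcodes in WT and 75.7% in N-LKO. Ptprc was thus not detected equally in the 2 libraries, and the part of this in the near-equal shares was not tested. Over all barcodes that passed the quality limits the share was 1.27% in WT and 2.05% in N-LKO (difference 0.78 points, 0.54 to 1.02), where the ratios at which the cell fractions were mixed bear on it and the N-LKO library also held more Ptprc-positive barcodes.

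The subset markers were distributed differently. Xcr1 or Clec9a without Cd209a was carried by 124 barcodes in WT (48.2%) and 190 in N-LKO (41.7%), a difference of −6.58 points (−14.1 to 0.99). Cd209a without Xcr1 or Clec9a was carried by 44 (17.1%) and 50 (11.0%), a difference of −6.16 points (−11.8 to −0.94). Both kinds of marker were found in 6 and 8 barcodes. The rest carried none of these and entered through Wdfy4 or Flt3. They numbered 83 in WT (32.3%) and 208 in N-LKO (45.6%), a difference of 13.3 points (5.86 to 20.4), and in 55 and 132 of them Wdfy4 was the only marker. These barcodes without a subset marker had a median depth of 1409 UMIs in WT against 1579 in N-LKO, and the part of marker dropout in the larger share was not tested.

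**Figure D1:**
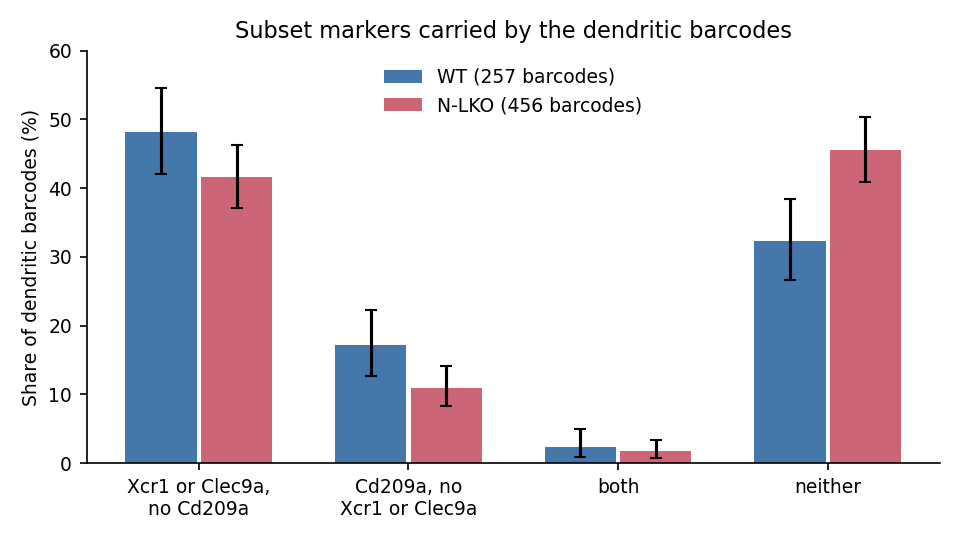
Share of dendritic barcodes (%) by the subset markers they carried, in WT (blue, 257 barcodes) and N-LKO (red, 456 barcodes). Bars are shares and whiskers are exact 95% binomial intervals, and barcodes with neither kind of marker were 32.3% in WT and 45.6% in N-LKO.

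The Xcr1 or Clec9a barcodes and the Cd209a barcodes also differed in cDC1 and cDC2 genes that did not define them. The 12 listed cDC1 genes other than Xcr1 and Clec9a summed to 3570 CPM in Xcr1 or Clec9a barcodes against 299 in Cd209a barcodes in WT, and to 3769 against 588 in N-LKO. The 9 listed cDC2 genes other than Cd209a summed to 190 against 409 in WT and 187 against 674 in N-LKO. The single genes named next are among the 10 with the largest difference each way out of 1367 compared, so they were picked for the pattern. Irf8 was at 669 CPM in Xcr1 or Clec9a barcodes against 47.2 in Cd209a barcodes in WT, and at 718 against 24.5 in N-LKO. Ppt1, a lysosomal thioesterase, was at 1035 against 63.0 in WT and 800 against 85.8 in N-LKO. Naaa was detected with 75 UMIs against 0 in WT and 119 against 4 in N-LKO, and Tlr3, the sensor of double-stranded RNA, with 39 against 0 and 66 against 2. In the other direction stood S100a4, a calcium-binding protein of migratory cells, at 52.2 against 409 in WT and 26.3 against 466 in N-LKO. Zeb2, a transcription factor of cDC2 and monocytes, was at 157 against 488 in WT and 257 against 968 in N-LKO, and Fcer1g, an Fc receptor subunit, at 128 against 598 and 242 against 944. The Cd209a side of these values rests on few barcodes.

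The cDC1, pan-dendritic and antigen presentation genes stood at nearly equal levels in WT and N-LKO dendritic barcodes. The few cDC2 genes other than Cd209a that could be compared were level or higher in N-LKO, but did not single out the set. Of 4096 genes with at least 50 UMIs over both libraries, 256 (6.25%) were at least 2-fold higher in N-LKO and 233 (5.69%) at least 2-fold lower, and the median log2 ratio was 0.06. Ratios are N-LKO over WT on the log2 scale with 0.5 UMI added. Leaving out the 5 genes that chose the barcodes, none of the 11 cDC1 genes, 7 pan-dendritic genes, 8 MHC class II genes or 13 MHC class I and cross-presentation genes that reached 50 UMIs was past 2-fold in either direction. Their medians were 0.0045, −0.08, −0.02 and −0.09. Of the cDC2 genes other than Cd209a, 4 of 9 reached 50 UMIs, all 4 had ratios above 0 (0.006 to 1.64), and the median was 0.58. The summed list of 9 was at −0.03 in Xcr1 or Clec9a barcodes and 0.71 in Cd209a barcodes. Of members over other leukocyte barcodes, the 4 (Sirpa, Itgam, Clec12a and Cd300a) had log2 ratios of −1.50 to −0.43 in WT. In N-LKO these were −1.23 to 0.10. Itgam, the CD11b chain shared with monocytes, was the one past 2-fold, with 8 and 52 UMIs (1.64, 0.63 to 3.00). In the other leukocyte barcodes it was also higher in N-LKO, at 27.8 and 60.4 CPM.

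H2-Aa, an MHC class II chain, was at 1915 CPM in WT and 2119 in N-LKO with a log2 ratio of 0.15 (0.02 to 0.27). Cd74 was at 4552 and 4854, a log2 ratio of 0.09 (0.01 to 0.17). H2-DMa, which helps load peptide, was at 285 and 220 (log2 ratio −0.38, −0.72 to −0.03), and Ciita, the activator of the MHC class II genes, at 222 and 186. All 4 levels differed by less than 2-fold between the libraries.

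The factors that set dendritic identity were likewise close. Irf8 was at 466 CPM in WT and 435 in N-LKO (log2 ratio −0.10, −0.36 to 0.16), Batf3 at 95.1 and 117 (0.29, −0.25 to 0.88), and Zbtb46 at 137 and 130 (−0.08, −0.56 to 0.42). Of 17 listed transcription factors that reached 50 UMIs, Zeb2 was the only one past 2-fold, at 222 in WT and 559 in N-LKO (1.33, 1.01 to 1.67). It was also higher in N-LKO in T-marker (1.63), B-marker (1.41) and monocyte-marker barcodes (0.73), with a ratio of 0.16 in Kupffer-marker barcodes. Its rise was thus not particular to dendritic barcodes. Among the rule markers, Wdfy4 was at 1229 and 1243, Flt3 at 285 and 275, Xcr1 at 210 and 179, Clec9a at 381 and 256, and Cd209a at 207 and 105. Cd209a was found in a smaller share of N-LKO barcodes (12.7% against 19.5%), and within Cd209a barcodes it stood at 1212 in WT and 907 in N-LKO (−0.42, −0.90 to 0.06). Its ratio over all dendritic barcodes, −0.98, was 0.48 under a UMI minimum of 2000 and −2.26 under a mitochondrial limit of 10%. Nus1 itself had 25 UMIs in WT and 42 in N-LKO, or 61.0 and 51.9 CPM (−0.25, −0.98 to 0.54), close to its level in barcodes under 500 UMIs (57.8 and 37.4).

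**Figure D2:**
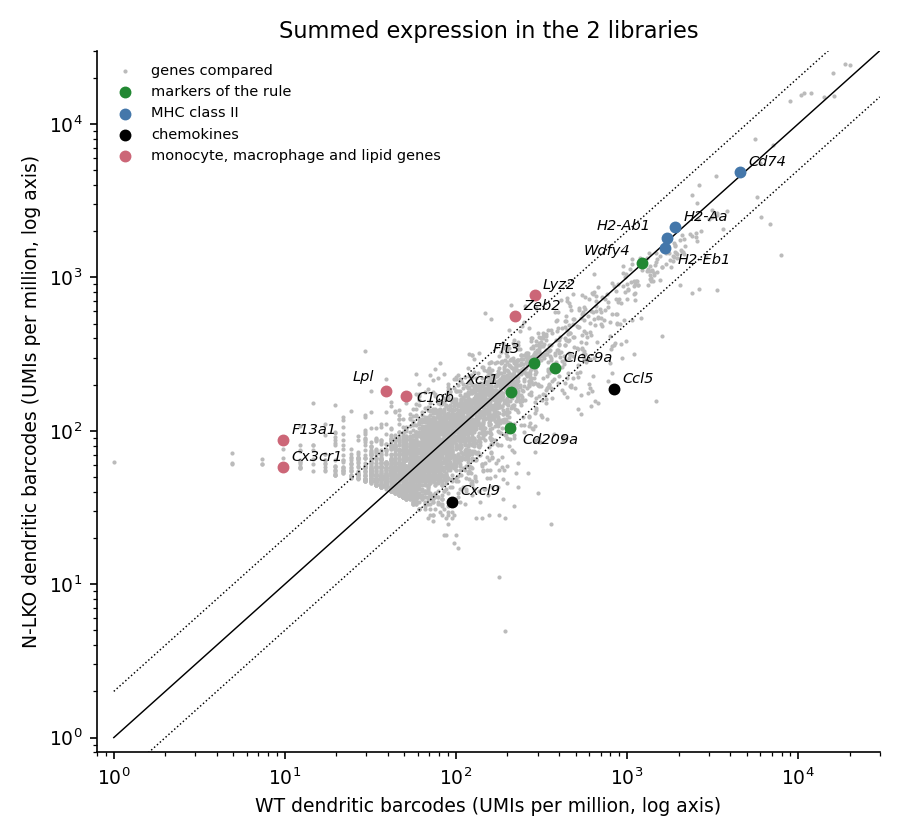
Summed CPM in WT (x axis) and N-LKO (y axis) dendritic barcodes for 4096 genes, both on log axes, with values under 1 drawn at 1. The solid line marks equal levels and the dotted lines 2-fold differences, and the MHC class II genes lie near the solid line while Ccl5, at 837 in WT and 186 in N-LKO, lies below the dotted band and Zeb2 and Lyz2 lie above it.

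Ccl5, a chemokine that draws T cells, had the second lowest ratio among the 2007 genes that stood at least 2 times above free RNA, and a few barcodes carried much of it. It was at 837 CPM in WT (343 UMIs in 36 barcodes) and 186 in N-LKO (151 UMIs in 55 barcodes) with a log2 ratio of −2.16 (−2.45 to −1.89). The ratio was −1.33 (−1.82 to −0.87) in Xcr1 or Clec9a barcodes and −2.99 (−3.38 to −2.63) in barcodes without a subset marker. After thinning to equal depth, a Ccl5 UMI was found in 12.1% of Xcr1 or Clec9a barcodes in WT and 7.89% in N-LKO. That difference, −4.20 points (−11.8 to 2.41), was within counting error, and without thinning the shares were 12.1% and 10.5%. In barcodes without a subset marker the thinned shares were 20.5% and 9.62% (difference −10.9 points, −21.3 to −2.16). In WT the 5 highest of all dendritic barcodes held 35.6% of the Ccl5 UMIs.

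T and NK cells make much Ccl5, and the sum of their markers was also lower in N-LKO, but by less. The 10 T and NK markers, none of them at 0 in either library, summed to 193 CPM in WT and 127 in N-LKO. The log2 ratio of this sum was −0.60 (−1.04 to −0.16), against −2.16 for Ccl5. After thinning to equal depth, the share of barcodes with a UMI of that list was nearly the same, at 8.17% and 7.89%. Without thinning, 26 barcodes in WT and 55 in N-LKO had such a UMI. Within these barcodes Ccl5 itself was at 5285 and 833 CPM (−2.66, −3.04 to −2.30), and the reason was not tested. The 26 WT barcodes held 246 of the 343 WT UMIs of Ccl5. Mature dendritic cells make it too, and 77 UMIs lay in the 8 WT barcodes with at least 2 UMIs of the maturation genes Ccr7, Fscn1, Il4i1, Cacnb3 and Ccl22, against 6 UMIs in the 14 such N-LKO barcodes. With the T and NK list barcodes alone left out, Ccl5 was at 267 and 95.7 (−1.48, −1.95 to −1.02), and with the mature ones alone left out at 669 and 186 (−1.85, −2.15 to −1.55). In barcodes with neither, it was at 132 in WT and 91.0 in N-LKO with a log2 ratio of −0.55 (−1.11 to 0.04). That level was close to that of barcodes under 500 UMIs (103 and 108), so with both kinds left out a difference was not detectable at this depth. In T-marker barcodes of the same libraries Ccl5 was also lower in N-LKO, at 5253 and 1811.

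Cxcl9, an interferon-induced chemokine for T cells, was at 95.1 CPM in WT and 34.6 in N-LKO (39 and 28 UMIs, log2 ratio −1.45, −2.22 to −0.72). Xcr1 or Clec9a barcodes held 35 and 17 of these UMIs, barcodes without a subset marker 4 and 11, and Cd209a barcodes 0 in both. With the barcodes that held T, NK or maturation genes left out, the ratio was −1.96 (−2.98 to −1.06). Of the WT UMIs, 66.7% came from 5 barcodes, the ratio was 0.28 under a mitochondrial limit of 10%, and Kupffer-marker barcodes had a ratio of −1.16. The share of barcodes with at least 2 UMIs of the 5 maturation genes was 2.72% (7 of 257) in WT and 1.97% (9 of 456) in N-LKO after thinning to 1000 UMIs, a difference of −0.75 points (−3.69 to 1.48), and 3.11% and 3.07% without thinning.

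The other listed signaling genes moved in both directions. Cd86, the ligand of CD28 on T cells, was at 144 CPM in WT and 261 in N-LKO (log2 ratio 0.85, 0.43 to 1.30), and at 185 and 283 in Xcr1 or Clec9a barcodes (0.60, 0.06 to 1.19). At equal depth 16.1% and 18.9% of the Xcr1 or Clec9a barcodes had a Cd86 UMI (difference 2.82 points, −6.14 to 11.0). The Cd86 ratio was 1.32 in T-marker and 0.37 in B-marker barcodes, but −0.40 in Kupffer-marker and −0.46 in monocyte-marker ones. Vsir, an inhibitory receptor, had 8 and 43 UMIs (1.37, 0.34 to 2.74). Lgals9, which encodes galectin-9, was at 268 and 125 (−1.10, −1.51 to −0.70), but barcodes under 500 UMIs held more of it, at 514 and 207, and its ratio was −0.58 with free RNA subtracted. Lgals9 was also lower in N-LKO in Kupffer-marker (−0.90), monocyte-marker (−0.88), T-marker (−1.11) and B-marker barcodes (−1.79). Havcr2, the receptor TIM-3, was at 183 and 179. The chemokine receptor Ccr2 was at 307 and 301, while Ccl4 (17 and 69 UMIs) and Ccl6 (22 and 98) were past 2-fold higher in N-LKO, with most of the N-LKO UMIs in barcodes without a subset marker. Only 3 of 14 interferon-stimulated genes in the files reached 50 UMIs, and none of them was past 2-fold in either direction.

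**Figure D3:**
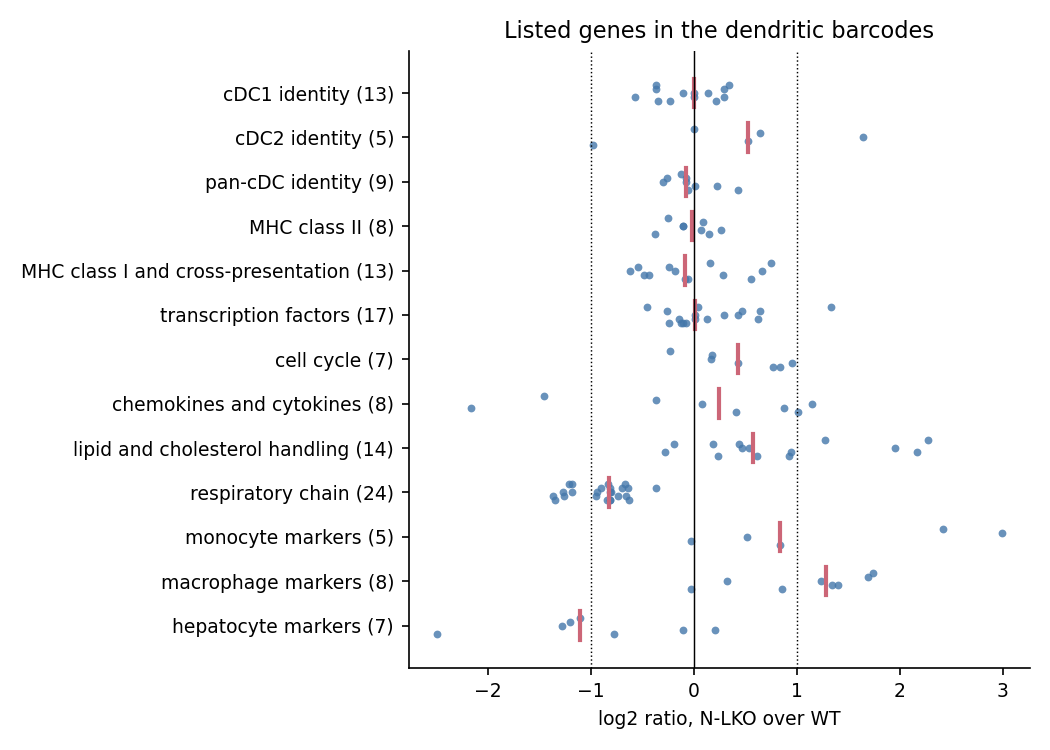
log2 ratios of N-LKO over WT for listed genes with at least 50 UMIs over both libraries, 1 point per gene and the number of genes in brackets. Red bars are medians and dotted lines mark 2-fold, and the cDC1, pan-dendritic and MHC class II genes lie within 2-fold while all 24 respiratory chain genes lie below 0.

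Macrophage genes, and some monocyte genes, were higher in N-LKO dendritic barcodes. Of 8 macrophage markers with at least 50 UMIs, 5 were at least 2-fold higher and none 2-fold lower, with a median log2 ratio of 1.28 against 0.06 for all genes tested. All 11 were detected in both libraries, and their sum was 634 CPM in WT and 1495 in N-LKO (log2 ratio 1.24, 1.04 to 1.44), while barcodes under 500 UMIs held 683 and 1175. The list includes Clec4f, Vsig4 and Cd5l, which the rule kept low in the dendritic barcodes of both libraries. Lyz2, the macrophage lysozyme, was at 288 and 762 (1.40, 1.12 to 1.70) and C1qb, a complement subunit, at 51.2 and 169 (1.69, 1.05 to 2.46), with 79.0 and 146 under 500 UMIs. Of 6 monocyte markers, of which Chil3 was at 0 in WT, 5 reached 50 UMIs, 4 had ratios above 0 and 2 were past 2-fold, and the list summed to 656 and 945 (0.52, 0.32 to 0.73) against 31.4 and 111 under 500 UMIs. The 2 were F13a1, with 4 and 70 UMIs (2.99, 1.73 to 5.06), and Cx3cr1, with 4 and 47 UMIs (2.42, 1.12 to 4.51), while Ccr2 was at −0.03. The monocyte list was also higher in N-LKO in T-marker (1.44), Kupffer-marker (0.77) and B-marker barcodes (0.25, −0.43 to 1.03). F13a1 had ratios of 4.80 in T-marker, 2.54 in Kupffer-marker and 1.35 in B-marker barcodes. Those of Cx3cr1 were 2.19, 0.90 and −0.08. The higher monocyte genes were thus not particular to dendritic barcodes.

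Among the dendritic barcodes, the difference sat mostly in those without a subset marker. There the macrophage sum was 635 CPM in WT and 2070 in N-LKO (log2 ratio 1.70, 1.37 to 2.06), against 608 and 911 in Xcr1 or Clec9a barcodes (0.58, 0.28 to 0.89) and 740 and 1520 in Cd209a barcodes (1.03, 0.54 to 1.56). Within the barcodes without a subset marker it was highest where Wdfy4 was the only marker, at 761 in WT and 2552 in N-LKO, and lower where Flt3 was present, at 369 and 1227. Kupffer-marker barcodes, chosen by Clec4f, Vsig4 and Cd5l of this list, held 12522 and 13006 of the same sum (0.05), and monocyte-marker barcodes 4317 and 5013 (0.21). The level in Kupffer-marker barcodes is thus partly set by their choice. T-marker barcodes held 353 and 1278 (1.85, 1.65 to 2.06), and B-marker barcodes 373 and 1087 (1.51, 0.83 to 2.34). The higher sum in N-LKO was thus not particular to dendritic barcodes. Among the subsets, the 4 neutrophil markers, of which Retnlg was at 0 in WT, also differed most in barcodes without a subset marker. They were at 15.9 and 428 there (2 and 159 UMIs), against 49.6 and 223 in barcodes under 500 UMIs. They were also higher in N-LKO in Kupffer-marker (2.16), monocyte-marker (3.15), T-marker (2.10) and B-marker barcodes (2.70). Their part in the macrophage result was not tested.

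Zeb2, which was also higher in N-LKO in T-, B- and monocyte-marker barcodes as given above, followed the same order. After thinning to 1000 UMIs it was found in 8.87% of Xcr1 or Clec9a barcodes in WT and 17.9% in N-LKO, in 36.4% and 52.0% of Cd209a barcodes, and in 10.8% and 40.4% of barcodes without a subset marker. For the last of these the difference was 29.5 points (18.9 to 38.0). In the same barcodes the MHC class II sum was 7680 in WT and 10296 in N-LKO, below the 11985 and 11811 of Xcr1 or Clec9a barcodes. With only barcodes that carried Xcr1, Clec9a or Cd209a, a choice made after seeing the data, the ratio of Zeb2 was 0.74 and that of the macrophage sum 0.67, and with Wdfy4 left out of the rule the latter was 0.41.

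**Figure D4:**
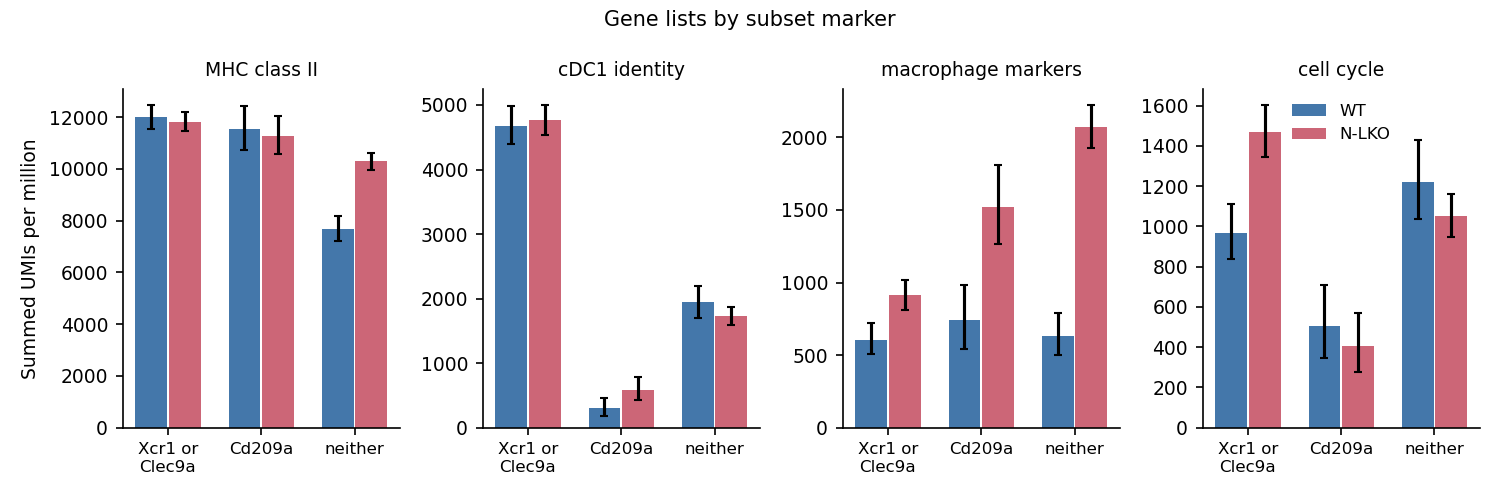
Summed CPM of 4 gene lists in dendritic barcodes with Xcr1 or Clec9a, with Cd209a or with neither, in WT (blue) and N-LKO (red), with exact 95% Poisson intervals. The macrophage markers in barcodes with neither were at 635 in WT and 2070 in N-LKO, and the cell cycle genes in Xcr1 or Clec9a barcodes at 968 and 1468.

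Lipid handling genes were also higher in N-LKO, with free RNA and other barcode sets moving the same way. Of 14 listed genes with at least 50 UMIs, 4 were at least 2-fold higher and none 2-fold lower, with a median log2 ratio of 0.57. Lpl, the lipoprotein lipase, was at 39.0 and 180 CPM (2.17, 1.46 to 3.05), Abca1, the cholesterol exporter, at 73.2 and 179 (1.27, 0.72 to 1.91), and Gpnmb, a gene of lipid-laden macrophages, had 5 and 52 UMIs (2.27, 1.08 to 4.08). In barcodes under 500 UMIs Lpl was at 50.9 and 190, Abca1 at 101 and 204, and Gpnmb at 6.25 and 51.7. In barcodes without a subset marker Gpnmb had 0 UMIs in WT and 35 in N-LKO. Apoe was at 3332 and 4598 (0.46, 0.37 to 0.56) and below the free RNA level in both libraries. Among the subsets, the list sum differed least in Xcr1 or Clec9a barcodes, at 4675 and 5786 (0.31, 0.20 to 0.42). Over all dendritic barcodes its ratio was 0.48 (0.40 to 0.56). It was 0.62 in Kupffer-marker, 0.58 in monocyte-marker, 0.49 in T-marker and 0.48 in B-marker barcodes, so the rise was not particular to dendritic barcodes.

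Cell cycle genes were higher in the Xcr1 or Clec9a barcodes of N-LKO. Top2a, a topoisomerase of dividing cells, was at 85.4 CPM there in WT and 251 in N-LKO (18 and 86 UMIs, log2 ratio 1.52, 0.81 to 2.38), and Mki67, the gene of the Ki-67 antigen, at 90.2 and 201 (1.13, 0.41 to 1.97). Both were low in free RNA, with Top2a at 5.51 and 12.8 under 500 UMIs. The summed list was at 968 and 1468 in these barcodes (0.60, 0.36 to 0.84), at 504 and 404 in Cd209a barcodes and at 1222 and 1050 in barcodes without a subset marker. A UMI of Top2a or Mki67 was found in 9.68% of Xcr1 or Clec9a barcodes in WT (12 of 124) and 22.1% in N-LKO (42 of 190) after thinning to 1000 UMIs, a difference of 12.4 points (4.05 to 20.02), and in 15.3% and 25.3% without thinning. Kupffer-marker barcodes gave 5.04% and 3.94% at the same depth. Among the comparison sets the summed list was higher in N-LKO in monocyte-marker barcodes, at 351 and 826 (1.22, 0.83 to 1.66), with Top2a at 4 and 79 UMIs (2.07, 0.82 to 4.15), and lower in Kupffer-marker (−0.20), T-marker (−0.80) and B-marker barcodes (−1.69). Under a UMI minimum of 2000, which left 44 WT and 123 N-LKO barcodes over all subsets, the ratio of the summed list turned to −0.16 and that of Top2a was 0.53.

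**Figure D5:**
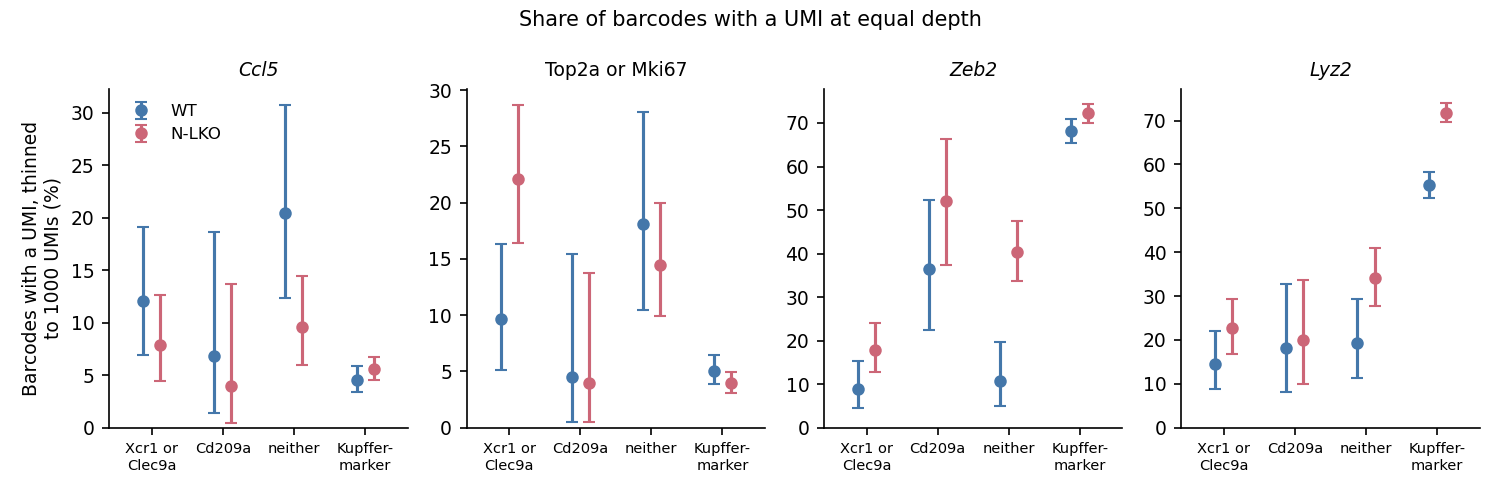
Share of barcodes with a UMI (%) after each was thinned to 1000 UMIs, for Ccl5, for Top2a or Mki67, for Zeb2 and for Lyz2, in the subsets of dendritic barcodes and in Kupffer-marker barcodes, in WT (blue) and N-LKO (red). Points are shares with exact 95% binomial intervals, and Zeb2 in barcodes with neither subset marker was at 10.8% in WT and 40.4% in N-LKO.

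Genes of the respiratory chain were lower in N-LKO dendritic barcodes in the counts as deposited. All 24 listed genes had ratios below 0 and 7 were at least 2-fold lower, with a median log2 ratio of −0.83. Cox6c, a subunit of cytochrome c oxidase, was at 983 and 385 CPM (−1.35, −1.57 to −1.13), and Ndufa4, another subunit, at 815 and 358 (−1.19, −1.42 to −0.95). The same list was lower in Kupffer-marker (10674 and 6123 summed), T-marker (13596 and 5426) and B-marker barcodes (12629 and 5306), and in barcodes under 500 UMIs (20690 and 6459). With free RNA subtracted the median was 0.03, with 13 genes above 0 and 11 below.

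Of the other genes with the highest ratios, several were higher throughout the N-LKO library. March3, a ubiquitin ligase, had 2 UMIs in WT and 50 in N-LKO dendritic barcodes (log2 ratio 3.35, 1.73 to 6.75) with ratios of 1.52 in Kupffer-marker, 1.39 in monocyte-marker and 2.29 in T-marker barcodes. Mpp7 (9 and 100 UMIs, 2.42) and Glis3 (8 and 80 UMIs, 2.26) were also higher in these 3 sets, at 1.55 to 2.04 and 2.02 to 3.69, and all 3 genes had 0 UMIs in the few WT B-marker barcodes. B4galt6 (3 and 49 UMIs, 2.84) and Lair1, an inhibitory collagen receptor (6 and 65 UMIs, 2.35), had ratios of −0.07 and −0.01 in Kupffer-marker barcodes and 2.69 and 2.02 in T-marker barcodes. Tnfrsf1b, Clec4a3, Apobec1 and Xylt1 had ratios between 1.68 and 2.13. Ighm had 24 and 189 UMIs (1.97), of which 111 in N-LKO came from 1 barcode, and its ratio was 0.69 with scored doublets left out. The 9 B markers, of which Pax5, Ms4a1 and Cd79a were at 0 by the rule, summed to 176 CPM in WT and 346 in N-LKO.

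Among the genes with the lowest ratios, the transcript Gm47283 (42 and 14 UMIs, −2.53, −3.55 to −1.67) was also lower in all 4 comparison sets. Besides Ccl5, Cxcl9 and Cd209a, the rest had ratios between −1.19 and −0.93. They were Kat7, Zfas1, 2410006H16Rik, Zfp62, Grap2, Snrpf, Uchl3 and Poldip3. Grap2, an adaptor of T cell receptor signaling, had 46 and 45 UMIs, or 112 and 55.6 CPM (−1.01, −1.64 to −0.39).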

How the data were processed

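The matrices held raw UMI counts per gene and barcode, made by the authors with Cell Ranger 7.1.0 per the file headers from 10x Genomics 3′ libraries. The submitters' processing notes also name Seurat and mm9 without a role, and no coordinates are printed. The barcodes, the gene lists and the rule for named genes were chosen with earlier results of these data known. Counts were summed over dendritic barcodes per library and scaled to their total over all genes (CPM). Ratios add 0.5 UMI and were given for genes with at least 50 UMIs over both libraries. With 1 library per group no test was made, and intervals are exact Poisson, conditional binomial or Clopper-Pearson, or Newcombe, at 95%. Their coverage was checked on counts drawn from the Poisson model that they assume. That check cannot show the effect of UMIs clustered in few barcodes, such as 111 of 189 N-LKO UMIs of Ighm in 1. Where UMIs cluster, the intervals are too narrow.

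Named genes were the 5 rule markers, the 12 highest and 12 lowest ratios among the 2007 genes at least 2 times above the level in barcodes under 500 UMIs of the library where they were higher, the 15 genes highest against other Ptprc-positive barcodes in both libraries, 10 genes each way between the subset markers, up to 4 genes of each list with the most UMIs or past 2-fold, and Nus1. Not all of them are printed. Free RNA was scaled by the hepatocyte markers Alb, Apoa1, Apoa2, Apoc3, Ttr, Fabp1 and Ahsg. Kupffer-marker barcodes had at least 3 UMIs of Clec4f, Vsig4 and Cd5l. Monocyte- (Ly6c2, F13a1, Chil3), T- (Skap1, Cd3e, Cd3d, Cd3g) and B-marker barcodes (Pax5, Ms4a1, Cd79a) had at least 2, all without UMIs of the rule markers. Gene spans came from GENCODE vM21, matched by identifier for 4095 of 4096 genes. Doublets were scored with Scrublet in scanpy 1.11.5. Alternatives changed the depth, mitochondrial and marker limits, lineage exclusions, doublets, shared barcodes, scaling, the UMI minimum for genes, gene span and the share's denominator.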

Additional observations from a re-analysis of the deposited data

Results flagged for a closer look

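Grap2, an adaptor of T cell receptor signaling, differed in direction between cell sets. In dendritic barcodes it was lower in N-LKO, with a log2 ratio of −1.01 (−1.64 to −0.39, 46 UMIs in WT and 45 in N-LKO). In Kupffer-marker barcodes it was higher, with a log2 ratio of 1.38 (0.47 to 2.53, 11 and 48 UMIs). The difference between the sets was not tested, and with 1 library per group it has no replicate check.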

How the results depend on the processing

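Depth limits the Cd209a barcodes most (44 and 50), and ratios of genes with under 10 UMIs in WT have intervals of several log2 units. Of 744 values under alternative settings, 59 had the opposite sign to the reported value. Of these, 47 were medians of lists, mostly ones near 0, with the respiratory chain median (−0.83) among the exceptions. The single genes and sums that changed sign were Cxcl9 and Zfas1 (both past 2-fold), Cd209a, and the cell cycle sum in Xcr1 or Clec9a barcodes. Over all barcodes the difference in share was 0.78 points, and among Ptprc-positive barcodes it was −0.58 points with a subset marker required. For Xcr1 or Clec9a barcodes the difference in share was −23.5 points with at least 2000 UMIs and 5.35 points among barcodes with a subset marker, and for maturation it was −3.73 points with at least 2000 UMIs and −4.84 points with a 10% mitochondrial limit (none was computed at a UMI minimum of 500, since barcodes were thinned to 1000). Genes at least 2-fold higher numbered 123 with at least 2000 UMIs, 93 with the 10% limit, 123 with a marker sum of 3, 152 without any other-lineage UMI, 81 when thinned before selection, 160 with stricter lineage exclusion, 419 with free RNA subtracted, 605 and 30 at gene minimums of 20 and 200 UMIs, 102 among barcodes with a subset marker and 65 without Wdfy4 in the rule. Genes at least 2-fold lower numbered 88, 105 and 143 for the depth, mitochondrial and thinned settings, 460 and 70 at minimums of 20 and 200, and 130 without Wdfy4. Of list medians, the respiratory chain turned to 0.032 with free RNA subtracted and was −0.48 relative to genes of like span, lipid handling was 0.13 without Wdfy4, cell cycle −0.55 and transcription factors −0.15 with at least 2000 UMIs, interferon-stimulated genes −0.27 with stricter exclusion, immediate early genes 0.33 by span, and pattern receptors −0.64 without any other-lineage UMI, −0.39 with free RNA subtracted and −0.42 relative to the median gene. Cxcl9 turned to 0.28 with the 10% limit, Zfas1 to 0.77, Cd209a to 0.48 and the cell cycle sum in Xcr1 or Clec9a barcodes to −0.16 with at least 2000 UMIs. Ccl5 ranged from −2.62 to −1.42. The causes were not tested, except that a stricter setting leaves fewer barcodes and genes. The settings on subset markers and on Wdfy4 were chosen after seeing the data. No paired analysis was possible because each group was 1 library.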

Other observations

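The ratio of a gene in dendritic barcodes followed the length of its genomic span. The median log2 ratio was −0.36 over the tenth of genes with the shortest spans (median 2.97 kb) and 0.42 over the tenth with the longest (median 284 kb), and with free RNA subtracted it was −0.12 and 0.35. Relative to genes of like span the median of the respiratory chain list was −0.48. What lies behind the relation was not tested.

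Plac8, a gene of monocytes and of some dendritic cells, was at 302 CPM in WT and 432 in N-LKO dendritic barcodes (log2 ratio 0.51, 0.22 to 0.82). The neutrophil markers S100a8 and S100a9 were at 34.2 and 90.1 and at 24.4 and 135 (the 14 UMIs of S100a8 in WT came from 1 barcode), and in barcodes under 500 UMIs at 14.9 and 75.1 and at 28.9 and 121. In Cd209a barcodes, the 9 listed cDC2 genes other than Cd209a summed to 409 in WT and 674 in N-LKO (0.71, 0.02 to 1.45, 26 and 55 UMIs).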
